A study of Mus musculus with 6 samples.

Results

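The genes described here are the 31 semaphorins, plexins and neuropilins of the deposited expression matrix, chosen by gene name out of 24421 rows. They comprise 20 semaphorins (7 of class 3, 6 of class 4, 2 of class 5, 4 of class 6 and *Sema7a*), 9 plexins and 2 neuropilins. The matrix holds 6 bulk RNA sequencing libraries of sorted aortic cells, 3 of the secondary heart field (SHF) lineage and 3 of the cardiac neural crest (CNC) lineage. The labels give the strain as 129S6/SvEv, to which the lines had been backcrossed, and all mice were 8 weeks old and carried the CAG-Sun1/sfGFP tracer allele, which makes a green fluorescent nuclear envelope protein once Cre has acted. In the SHF group the Cre was Mef2cSHF, and in the CNC group it was Wnt1-Cre2. No group carried a deletion or a treatment. Live GFP+ cells were collected by flow cytometry from dissociated aortic root and ascending aorta, with propidium iodide used to leave out dead cells. Both Cre alleles record the descent of a cell and not its type, so each sort could hold every cell type of that lineage in the dissected tissue. The labels do not say whether each library came from 1 mouse or from pooled mice, and p-values therefore measure only the spread between these libraries.

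Semaphorins are secreted or membrane-bound guidance proteins, and plexins are their principal signalling receptors. Most class 3 semaphorins, which are secreted, bind a neuropilin, which has a short cytoplasmic tail and passes the signal on through an associated plexin, whereas most other classes bind plexins directly. In the embryonic outflow tract, *Sema3c* is known for guiding cardiac neural crest cells during septation of the great arteries. Its receptors include *Plxna2*, *Plxnd1*, *Nrp1* and *Nrp2*. The comparison of SHF with CNC cells asks which of these genes the adult descendants of both lineages still express and whether the lineages differ in them.

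Levels are given as TPM, the share of a library's transcripts that a gene takes, scaled to transcript length, so that genes can be set beside each other. Where 3 values are given for a lineage, they stand in the order of replicates 1, 2 and 3. In bulk samples, fewer cells of a type and less RNA per cell cannot be told apart. TPM holds no read counts, so the depth of the libraries is unknown and no counting interval can be given. Between 9255 and 11858 genes were above 0 in a library, and no 2 libraries had identical values. Between 14 and 22 of the 31 genes were above 0 in a library, and together they held between 0.0393% and 0.0691% of its TPM.

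The labels call the sorted cells SHF-derived or CNC-derived, and the study treats them as vascular smooth muscle cells. The 10 smooth muscle markers, led by the myosin light chain gene *Myl9*, summed to between 1507 and 3165 TPM in the SHF libraries and between 1344 and 2088 TPM in the CNC libraries. The 10 fibroblast markers, led by *Gsn*, summed to far more in every library, between 37781 and 54583 TPM in SHF and between 49718 and 55344 TPM in CNC. Of the 10 fibroblast markers, *Col1a1*, *Clec3b*, *Pi16*, *Mfap5* and *Serpinf1* were higher in CNC without overlap and at an unadjusted p under 0.05 in the limma fit described below, and none passed the adjusted threshold, while 11.8% of all tested genes did not overlap and 5.86% had such a p. The part of this marker shift in the values below was not tested. The 10 endothelial markers, led by *Pecam1*, summed to 104, 632 and 493 TPM in the SHF libraries and to 46.4, 73.6 and 39.1 TPM in the CNC libraries. The endothelial genes *Cdh5*, *Tie1*, *Emcn*, *Cldn5* and *Vwf* were listed at 0 in all 3 CNC libraries. The other 5 endothelial markers were not. *Pecam1* was at 31.45, 147.51 and 141.59 TPM in SHF and at 9.72, 37.86 and 19.81 TPM in CNC. Its unadjusted p was 0.022 in the limma fit, with an adjusted p of 0.763. *Egfl7* was at 0, 42.55 and 117.92 TPM in SHF and at 0, 0 and 1.98 TPM in CNC. *Cdh5* and *Emcn* reached 1 TPM in SHF libraries alone, so no test is given for them. *Tek* was at 31.58, 0 and 57.25 TPM in SHF and at 36.71, 23.10 and 1.11 TPM in CNC, *Erg* was highest in CNC replicate 3, with 14.75 TPM, and *Esam* had 12.65 TPM in CNC replicate 2 and 0 in SHF replicate 3. Summed levels in SHF and in CNC ranged from 1.5 to 15.97 TPM and from 21.43 to 94.62 TPM for Schwann cell markers, with *Foxd3* at 0 throughout. They ranged from 87.44 to 144 TPM and from 0 to 92.1 TPM for cardiomyocyte markers. Leukocyte markers stayed under 85 TPM in every library, with *Ptprc*, *Adgre1*, *Itgam* and *Cd3e* at 0 throughout. Neuronal markers reached 30.28 TPM at most and were at 0 in all CNC libraries, and melanocyte markers reached 35.14 TPM, with *Pmel*, *Dct*, *Mlana* and *Tyrp1* at 0 throughout. *Xist*, which is transcribed in female cells, measured 51.95 and 38.76 TPM in the second and the third SHF library and 0 in the other 4. The Y-linked gene *Ddx3y* was listed at 0 in those 2 libraries and lay between 42.24 and 61.27 TPM in the other 4, and the Y-linked *Eif2s3y* had the same pattern, with 23.09 to 110.88 TPM. Both libraries with *Xist* were of the SHF lineage, the labels give no sex, and the part of sex in the values below was not tested. Among the genes described here, *Plxna3* and *Plxnb3* lie on the X chromosome.

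Of the 186 values of the 31 genes, 72 were listed at 0, 25 lay above 0 and under 1 TPM, 25 lay between 1 and 5 TPM and 64 were at 5 TPM or more. The heat map of all members shows a small constant set and a larger set that came and went between libraries of the same lineage. The constant set was *Sema3b*, *Sema3c*, *Sema3d* and *Nrp1*, each above 20 TPM in all 6 libraries, and *Plxnb2*, above 10 TPM in all 6. It therefore held 3 secreted ligands, 1 co-receptor and 1 plexin. Constant here means above such a level in every library and not steady. The highest value was from 2.71 (*Sema3d*) to 3.68 (*Nrp1*) times the lowest. *Sema3g*, *Sema4g*, *Sema5b* and *Plxnb3* were listed at 0 in every library.

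**Figure D1:**
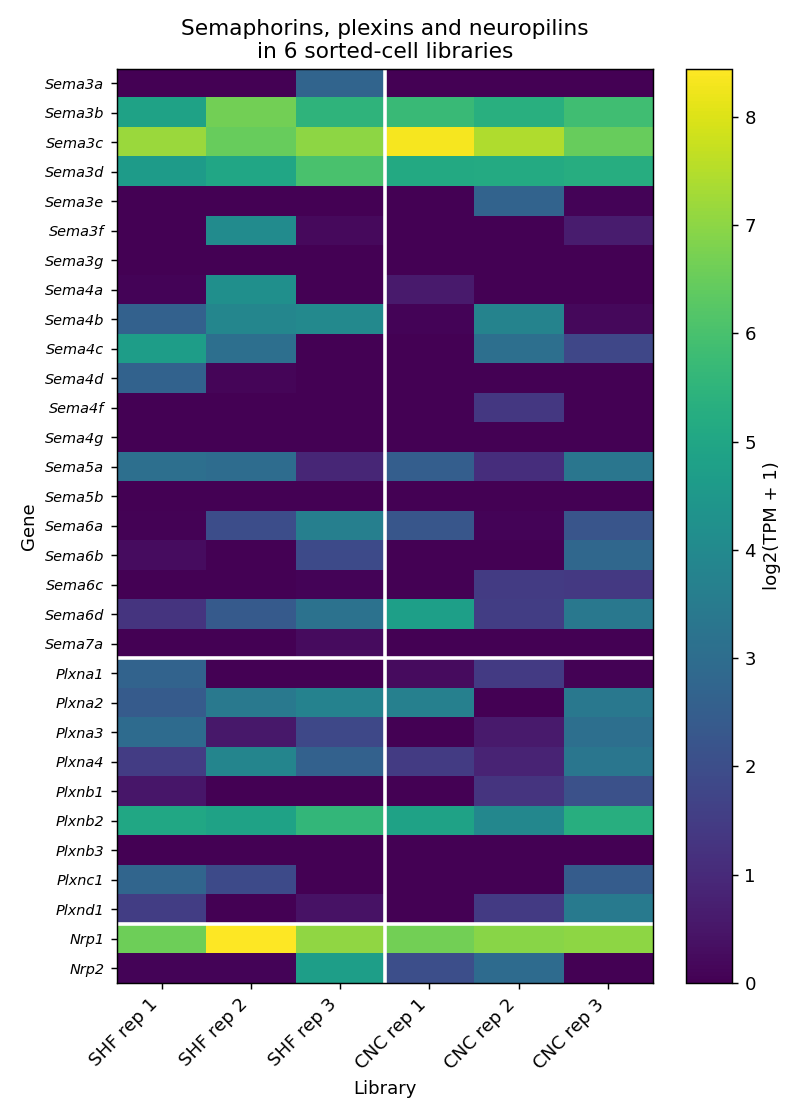
Heat map of log2(TPM + 1) for the 31 genes (rows, with white lines between semaphorins, plexins and neuropilins) in the 3 SHF and 3 CNC libraries (columns). *Sema3b*, *Sema3c*, *Sema3d*, *Plxnb2* and *Nrp1* are bright in all 6 columns, and 72 of the 186 cells are at 0.

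The 4 class 3 genes *Sema3d*, *Sema3a*, *Sema3e* and *Sema3c* lie, in this order, within 5.35 Mb of chromosome 5 on the GRCm38 build (the one called mm10), at chr5:12383385-12588948, chr5:13125414-13602565, chr5:14025276-14256689 and chr5:17574281-17730268 of the GENCODE M21 annotation. The outer genes of this stretch, *Sema3d* and *Sema3c*, were among the constant genes. The inner genes were not: *Sema3a* was listed above 0 only in SHF replicate 3, with 5.56 TPM, and *Sema3e* only in CNC replicates 2 and 3, with 5.46 and 0.07 TPM. To show what lies upstream of neighbouring genes with unlike levels, the 250 bases before the RefSeq start (GRCm38.p6, plus strand) are printed for *Sema3d* (chr5:12382916-12383165), *Sema3a* (chr5:13396534-13396783) and *Sema3e* (chr5:14025026-14025275). None of these 3 windows overlaps an exon of GENCODE M21, and that of *Sema3a* lies within the longer GENCODE gene. Capitals mark a GC box (GGGCGG or, on the other strand, CCGCCC) or a CCAAT box (CCAAT or ATTGG), and TATAAA was also searched on both strands.
Sema3d: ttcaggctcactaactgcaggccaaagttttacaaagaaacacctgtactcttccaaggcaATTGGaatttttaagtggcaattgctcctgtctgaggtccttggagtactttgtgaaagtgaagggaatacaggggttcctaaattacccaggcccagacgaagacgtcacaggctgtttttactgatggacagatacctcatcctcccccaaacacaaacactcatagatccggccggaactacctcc
Sema3a: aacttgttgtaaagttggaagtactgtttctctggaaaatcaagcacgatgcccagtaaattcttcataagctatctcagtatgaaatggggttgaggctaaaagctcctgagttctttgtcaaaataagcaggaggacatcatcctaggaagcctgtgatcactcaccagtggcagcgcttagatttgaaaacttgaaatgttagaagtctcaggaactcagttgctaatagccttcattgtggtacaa
Sema3e: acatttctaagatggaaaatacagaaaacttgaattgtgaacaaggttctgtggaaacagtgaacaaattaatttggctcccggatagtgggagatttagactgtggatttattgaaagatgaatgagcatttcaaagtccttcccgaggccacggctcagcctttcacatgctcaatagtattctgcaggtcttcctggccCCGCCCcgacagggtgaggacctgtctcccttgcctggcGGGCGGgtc
The *Sema3d* window held 1 CCAAT box and no GC box, that of *Sema3e* held 2 GC boxes, and that of *Sema3a* held none of the 3 motifs. Their GC contents were 46.8%, 48.0% and 40.8%, in the order *Sema3d*, *Sema3e*, *Sema3a*. The corresponding window of *Sema3c*, not printed because the annotation places it in an exon, had a GC content of 78.4% and 3 GC boxes. Of the 4 neighbours, the 2 that were high in every library had the most GC boxes (*Sema3c*) and none (*Sema3d*).

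For the receptors of the constant set, and for *Nrp2* to set beside *Nrp1*, the same upstream windows are shown in the 5′ to 3′ direction of the gene, for *Nrp1* (chr8:128358823-128359072, plus strand), *Nrp2* (chr1:62703067-62703284, plus strand, ending where the first annotated exon begins) and *Plxnb2* (chr15:89180789-89181038, minus strand). The *Nrp1* window lies within the longer GENCODE gene and overlaps no annotated exon. Capitals mark GC boxes, and none of the printed stretches held a CCAAT box or TATAAA.
Nrp1: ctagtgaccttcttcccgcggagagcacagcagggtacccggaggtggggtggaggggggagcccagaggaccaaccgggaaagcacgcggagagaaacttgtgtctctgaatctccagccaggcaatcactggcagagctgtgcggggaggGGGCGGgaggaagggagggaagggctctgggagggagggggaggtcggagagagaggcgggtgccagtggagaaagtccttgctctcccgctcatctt
Nrp2: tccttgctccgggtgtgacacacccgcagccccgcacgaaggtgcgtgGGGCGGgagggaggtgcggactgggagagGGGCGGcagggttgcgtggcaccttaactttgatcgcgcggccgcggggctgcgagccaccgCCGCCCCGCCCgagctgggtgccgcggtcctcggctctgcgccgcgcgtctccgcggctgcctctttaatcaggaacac
Plxnb2: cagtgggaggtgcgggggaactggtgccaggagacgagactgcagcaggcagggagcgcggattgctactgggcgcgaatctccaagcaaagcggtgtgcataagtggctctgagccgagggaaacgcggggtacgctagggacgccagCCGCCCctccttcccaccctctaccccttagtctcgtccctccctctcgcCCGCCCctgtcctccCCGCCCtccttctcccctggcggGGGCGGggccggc
The printed stretches held 1 GC box for *Nrp1*, 4 for *Nrp2* and 4 for *Plxnb2*, so the neuropilin with the lower and less constant level had more of them. RefSeq windows were found for 26 of the 31 genes, 37 windows in all because some genes have several starts, and not for *Plxna1*, *Plxna4*, *Sema3b*, *Sema3f* and *Sema6a*. A GC box was present in 27 of the 37 windows, against 32.7% of all 32851 windows of the same length. A CCAAT box was present in 7 of the 37, against 33.8% of all windows, and TATAAA in 0 of the 37, against 12.4%. The median GC content of the 37 windows was 64.0%, against 52.4% over all windows. In GENCODE M21, *Sema3b* lies at chr9:107597674-107609229, *Plxnb2* at chr15:89155549-89180788, *Nrp1* at chr8:128358604-128503363 and *Nrp2* at chr1:62703285-62818695. None of the 31 genes has an exon that overlaps an exon of another protein-coding gene. For 7 of them an exon overlaps one of an annotated gene without a protein product, such as *Mir1903* in *Nrp1*. A motif match is a description of the letters and not evidence that a factor binds.

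Among the ligands, *Sema3c* was the most abundant semaphorin in 5 of 6 libraries. Its level was 143.68, 89.23 and 126.63 TPM in SHF and 323.46, 173.92 and 88.82 TPM in CNC. The lineages overlapped, since CNC replicate 3 was the lowest library of all and CNC replicate 1 the highest. By its mean over the 6 libraries it ranked 984th of the 24421 rows.

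*Sema3b*, another secreted ligand, was at 28.22, 99.03 and 43.80 TPM in the SHF libraries and at 51.54, 39.27 and 57.29 TPM in the CNC libraries. SHF replicate 2, where it exceeded *Sema3c*, lay above all CNC libraries and SHF replicate 1 below them. *Sema3d* was at 23.62, 30.75 and 63.92 TPM in SHF and at 33.99, 35.24 and 37.08 TPM in CNC. The 3 CNC values of *Sema3d* differed by no more than 1.09 times, and the SHF values lay on both sides of them.

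These 3 class 3 genes made up most of the semaphorin transcripts. Their share of the summed TPM of the 20 semaphorins was 81.4%, 76.1% and 84.2% in SHF and 92.1%, 88.5% and 84.7% in CNC. The summed TPM of all semaphorins was 240, 288 and 278 in the SHF libraries and 444, 281 and 216 in the CNC libraries. The high sum of CNC replicate 1 was that of the library with the most *Sema3c*, as the bars by class show.

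**Figure D2:**
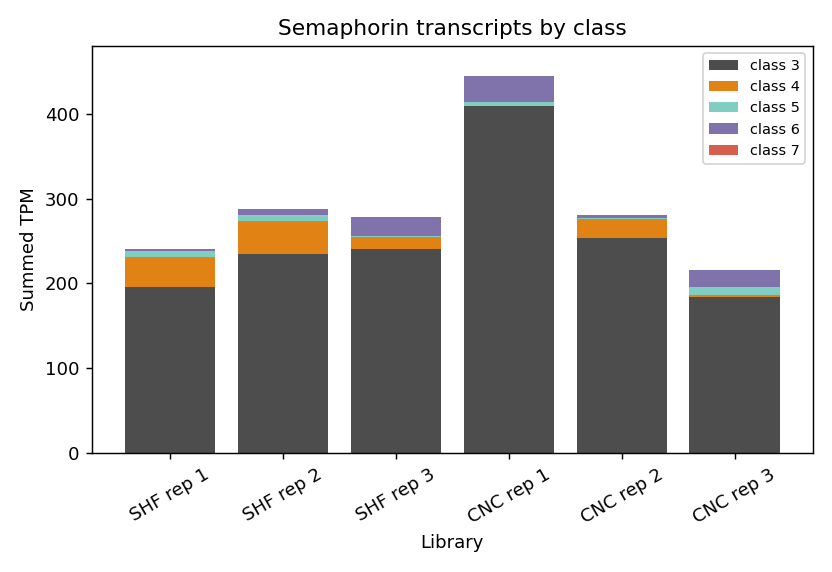
Summed TPM (vertical axis) of the semaphorins in each library, stacked by class (colours). Class 3 makes up most of every bar, and class 4 is visible in the 3 SHF libraries and CNC replicate 2 and is at 0.56 and 2.60 TPM in CNC replicates 1 and 3.

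The remaining class 3 genes were present in few libraries. *Sema3f*, the ligand that binds *Nrp2* preferentially, had 16.04 TPM in SHF replicate 2, while the third library of each lineage had 0.17 (SHF) and 0.56 TPM (CNC) and the other 3 libraries 0. With *Sema3a* and *Sema3e* described above and *Sema3g* at 0, no class 3 gene other than the constant 3 reached 1 TPM in more than 1 library.

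The membrane-bound class 4 semaphorins summed to 35.32, 38.60 and 14.80 TPM in the SHF libraries and to 0.56, 21.83 and 2.60 TPM in the CNC libraries, with SHF replicate 3 below CNC replicate 2. *Sema4b* contributed most by mean, at 5.16, 13.54 and 14.80 TPM in SHF and at 0.05, 12.81 and 0.13 TPM in CNC. It was the member with the largest difference, and it was near 0 in 2 CNC libraries while CNC replicate 2 lay within the SHF values. *Sema4c*, a ligand of *Plxnb2*, was at 24.85, 7.58 and 0 TPM in SHF and at 0, 7.41 and 2.47 TPM in CNC, so each lineage had a library at 0. *Sema4a* reached 17.40 TPM in SHF replicate 2 but at most 0.51 TPM elsewhere. *Sema4d*, the ligand of *Plxnb1*, reached 5.24 TPM in SHF replicate 1 but at most 0.08 TPM elsewhere. *Sema4f* was at 1.61 TPM in CNC replicate 2 alone.

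Classes 5 and 6 are transmembrane proteins. *Sema5a* was above 0 in every library, at 7.54, 7.01 and 0.87 TPM in SHF and at 4.72, 1.13 and 8.98 TPM in CNC. *Sema6d*, a ligand of *Plxna1*, was also above 0 in every library, at 1.43, 4.20 and 8.00 TPM in SHF and at 26.03, 1.92 and 9.39 TPM in CNC. *Sema6a*, a ligand of *Plxna2* and *Plxna4*, was at 0.03, 2.97 and 11.46 TPM in SHF and at 3.84, 0.05 and 3.70 TPM in CNC. The lineages overlapped for each of these 3 genes. *Sema6b* was detected in 3 libraries, with at most 6.12 TPM in CNC replicate 3, and *Sema6c* in 3 libraries, with at most 1.79 TPM in CNC replicate 2. *Sema7a*, which is anchored to the membrane by a lipid, was at 0.18 TPM in SHF replicate 3 alone.

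Among the receptors, *Plxnb2* was the highest plexin in 6 of 6 libraries, at 32.01, 28.43 and 47.37 TPM in SHF and at 27.89, 13.91 and 38.09 TPM in CNC. It held 54.6%, 51.9% and 69.8% of the summed plexin TPM in the SHF libraries and 67.1%, 69.5% and 46.5% in the CNC libraries. The lineages overlapped, and the lowest value was that of CNC replicate 2. That library also had the lowest summed plexin TPM, 20.02, against 41.6 to 82.0 in the other 5.

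Class A plexins transmit most class 3 signals bound by neuropilins. *Plxna2* was at 4.31, 9.77 and 12.45 TPM in SHF and at 11.74, 0.02 and 9.43 TPM in CNC, with all libraries but CNC replicate 2 above 4 TPM. *Plxna4* was at 1.85, 13.46 and 5.22 TPM in SHF and at 1.77, 0.78 and 9.06 TPM in CNC. *Plxna3* was at 6.76, 0.47 and 2.54 TPM in SHF and at 0, 0.52 and 7.57 TPM in CNC. The plexin in the second place was *Plxna3*, *Plxna4* and *Plxna2* in SHF. In CNC it was *Plxna2* in replicate 1, *Plxna1* and *Plxnd1* alike at 1.70 TPM in replicate 2, and *Plxnd1* in replicate 3. *Plxna1* had 5.52 TPM in SHF replicate 1, 0 in the other SHF libraries and at most 1.70 TPM in CNC.

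*Plxnd1*, the receptor of *Sema3e* that is best known from endothelium, was at 1.92, 0 and 0.32 TPM in SHF and at 0, 1.70 and 9.95 TPM in CNC. It was highest in CNC replicate 3, where the endothelial markers summed to 39.1 TPM, and their part in the *Plxnd1* values was not tested. *Plxnc1*, the receptor of *Sema7a*, was at 5.82, 2.70 and 0 TPM in SHF and at 0, 0 and 4.53 TPM in CNC. *Plxnb1* was detected in SHF replicate 1, with 0.42 TPM, and in CNC replicates 2 and 3, with 1.39 and 3.29 TPM.

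*Nrp1*, which serves class 3 semaphorins and vascular endothelial growth factors alike, exceeded *Nrp2* in 6 of 6 libraries. Its level was 94.66, 347.96 and 131.25 TPM in SHF and 100.38, 121.14 and 126.95 TPM in CNC, which ranked it 1014th of all rows by mean. SHF replicate 2 stood apart from the other 5 libraries, which lay between 94.66 and 131.25 TPM. SHF replicate 2 also had the highest endothelial marker sum, 632 TPM, whereas SHF replicate 3, with 493 TPM, had an *Nrp1* level 4.3 TPM above that of CNC replicate 3, with 39.1 TPM of endothelial markers. The part of endothelial cells in the *Nrp1* values was not tested. *Nrp2* was at 0.06, 0.05 and 25.86 TPM in SHF and at 3.11, 6.72 and 0.02 TPM in CNC, and 3 of the 6 libraries were thus below 0.1 TPM.

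**Figure D3:**
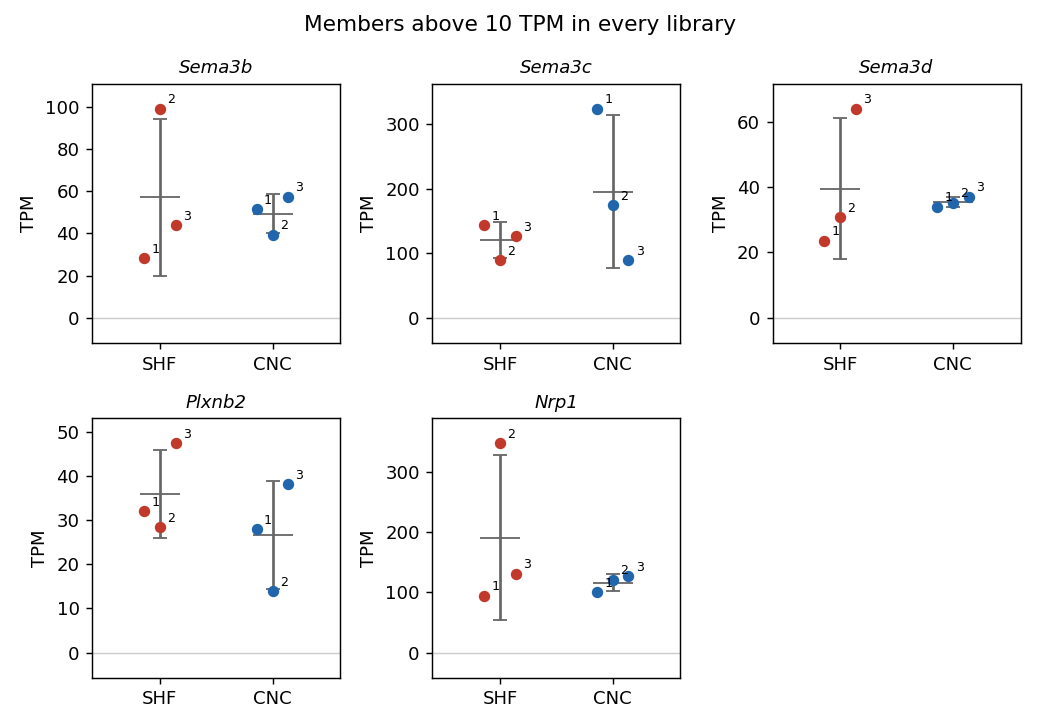
TPM (vertical axes, from 0) of the 5 genes above 10 TPM in every library, by lineage. Points are libraries numbered by replicate, and grey bars are the mean and SD of 3 libraries. SHF and CNC points overlap in all 5 panels, and *Nrp1* at 347.96 TPM in SHF replicate 2 lies apart.

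Levels were compared between the lineages with limma, a linear model that shares information on the spread across genes, on log2(TPM + 1), for genes that reached 1 TPM in 3 or more libraries. P-values were adjusted by Benjamini-Hochberg over all 10185 genes tested, with a threshold of 0.05. Of the 31 genes, 16 were tested, and these were 8 semaphorins, 6 plexins and both neuropilins. None of the 16 passed the threshold, and none of all genes tested did, so that the share called was 0% in both. At an unadjusted p under 0.05 there were 0 of the 16 members and 597 of all tested genes (5.86%). The SHF and CNC libraries did not overlap for 0 of the 16 members and for 11.8% of all tested genes. No member was exclusive to a lineage, meaning above 5 TPM in each of its libraries and at 0 in each of the other, against 0.139% of all rows.

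The log2 fold change (SHF minus CNC) was above 0 for 12 and below 0 for 4 of the 16 genes, with a median of 0.43, beside a median of 0.02 over all tested genes, of which 51.2% were above 0. The median of the members was 0.062 without CNC replicate 2, 0.15 without CNC replicate 1, 0.26 without SHF replicate 2 and 0.12 with library weights. The 16 values ran from -0.98 for *Plxnd1* to 2.14 for *Sema4b*, and all adjusted p-values by limma lay between 0.874 and 0.998. For single genes an exact two-sided permutation of 3 against 3 libraries cannot go below 0.1, and the smallest value among the 16 was 0.2, for *Sema4b*.

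*Sema4b* had a log2 fold change of 2.14 (SE 1.38, 95% confidence interval from -0.88 to 5.17, limma adjusted p = 0.874). For the other 7 genes with the largest differences the size was under 1 on the log2 scale. They were *Plxnd1* at -0.98 (SE 1.04), *Sema4c* at 0.98 (SE 1.46), *Sema6d* at -0.95 (SE 1.33), *Plxna2* at 0.83 (SE 1.38), *Plxna4* at 0.79 (SE 1.26), *Plxnc1* at 0.73 (SE 1.07) and *Plxna3* at 0.54 (SE 1.15). Each of these differences was smaller than its standard error, with limma adjusted p-values from 0.904 to 0.95. Leaving out 1 library turned the sign of 3 of them, to -0.072 for *Sema4c* without SHF replicate 1, to -0.33 for *Plxna2* without CNC replicate 2, and to -0.045 and -0.073 for *Plxna3* without SHF replicate 1 and without CNC replicate 1. Others kept their sign and moved: without CNC replicate 3 that of *Plxnd1* was -0.068, and without CNC replicate 1 that of *Sema6d* was -0.19. That of *Sema4b* lay between 1.51 and 3.37 with each library left out.

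The constant genes were chosen for being above a set level in every library. Among them, the interval of *Sema3c* ran from -1.63 to 0.55 about a log2 fold change of -0.54 (SE 0.50, limma adjusted p = 0.896). That of *Nrp1* ran from -0.60 to 1.59 about 0.49 (SE 0.50, limma adjusted p = 0.902). Without SHF replicate 2 the log2 fold change of *Nrp1* was -0.052, so its direction rested on that library. That of *Sema3c* was -0.080 without CNC replicate 1 and -1.01 without CNC replicate 3. *Plxnb2* had an interval from -1.11 to 2.09, *Sema3b* from -1.34 to 1.40 and *Sema3d* from -1.43 to 1.48. All these intervals include 0, and each also includes a difference of more than 1 on the log2 scale in at least 1 direction. A difference of 1 towards SHF lies outside the interval of *Sema3c*, and one of 1 towards CNC outside that of *Nrp1*.

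**Figure D4:**
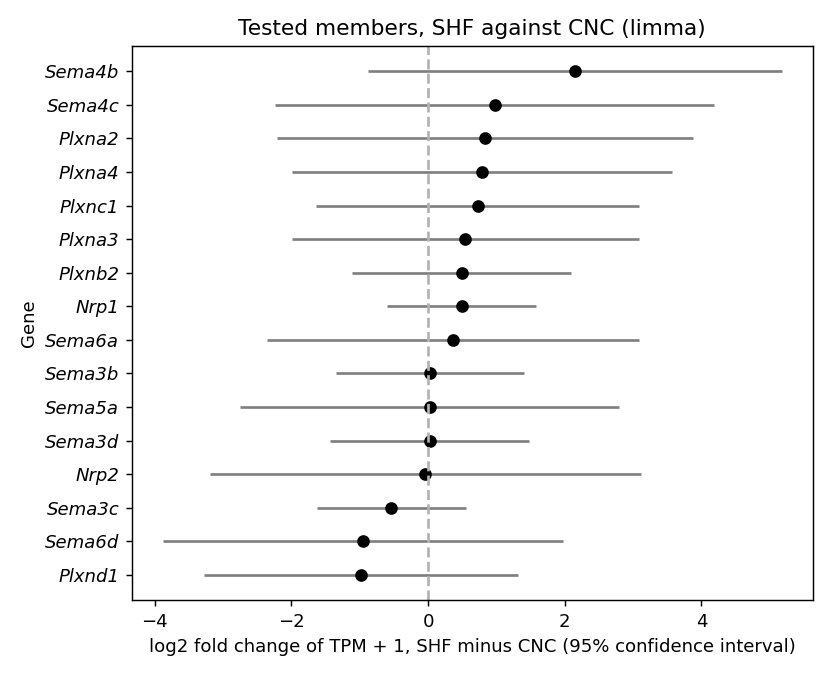
Log2 fold change of TPM + 1, SHF minus CNC (horizontal axis), for the 16 tested genes (vertical axis), as points with 95% confidence intervals from limma on 3 against 3 libraries. Every interval crosses the dashed line at 0, and *Sema4b* at 2.14 is farthest from it.

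The highest values were spread over all 6 libraries. Of the 27 genes above 0 in any library, the highest value was in SHF replicate 1 for 4, in SHF replicate 2 for 5, in SHF replicate 3 for 8, in CNC replicate 1 for 2, in CNC replicate 2 for 3 and in CNC replicate 3 for 5. The gene with the highest level outside class 3 among the semaphorins was *Sema4c*, *Sema4a* and *Sema4b* in SHF and *Sema6d*, *Sema4b* and *Sema6d* in CNC.

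The other genes of the pathway were followed in a list of 54, of which 41 were tested. None passed the threshold. The lineages did not overlap for 6 of the 41 (14.6%), 5 of them higher in SHF and 1 higher in CNC, beside 11.8% of all tested genes. Among the 5, *Flt4* entered the 41 through its SHF libraries alone and had to be apart, and without it 5 of 40 (12.5%) did not overlap, 4 of them higher in SHF. Of the 40 genes without *Flt4*, only *Vegfc* had an unadjusted p under 0.05 in the limma fit, beside 5.86% of all tested genes. The median log2 fold change was 0.28, with 26 genes above 0 and 15 below.

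Of 15 co-receptors and partner receptors, 8 were tested and 1 did not overlap, beside 11.8% of all tested genes. The most abundant by mean was *Itgb1*, the beta subunit of integrins, with 390.21, 410.18 and 371.67 TPM in SHF and 269.53, 309.64 and 393.88 TPM in CNC. It was followed by *Erbb2*, a receptor tyrosine kinase that associates with class B plexins, with a mean of 19.0 TPM, and *Itga1*, an integrin subunit that pairs with *Itgb1* as a receptor of *Sema7a*, with a mean of 14.05 TPM. The gene without overlap was *Flt4*, the receptor of *Vegfc*, for which *Nrp2* is a co-receptor. *Flt4* was at 1.31, 4.54 and 12.72 TPM in the SHF libraries and listed at 0 in all 3 CNC libraries. It passed the filter on low values through its SHF libraries alone, so its lack of overlap was fixed by the filter and no test is given for it. It is known from lymphatic and some blood endothelium, and the SHF libraries also had the higher endothelial marker sums, of 104 to 632 against 39.1 to 73.6 TPM, whose part in the *Flt4* difference was not tested.

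All 5 of the other neuropilin ligands and furin were tested, and the lineages overlapped for each. *Pgf*, which binds *Nrp1*, had the highest mean, 57.9 TPM. *Vegfc*, the ligand of *Flt4*, was at 18.06, 89.73 and 25.61 TPM in SHF and at 0, 0 and 22.87 TPM in CNC, so CNC replicate 3 lay among the SHF libraries (log2 fold change 3.64, SE 1.496, limma unadjusted p = 0.033, adjusted p = 0.812). *Furin*, the protease that processes class 3 semaphorins, had a mean of 10.3 TPM.

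Of 16 small GTPases and their regulators that act with plexins, 14 were tested. The lineages did not overlap for 2 of them, beside 11.8% of all tested genes. The small GTPases *Rhoa*, *Rac1* and *Rap1b* had the highest means, 569, 241 and 157 TPM. *Mras*, a small GTPase of the Ras family, was at 5.67, 16.03 and 8.95 TPM in SHF and at 0, 3.85 and 0.04 TPM in CNC (log2 fold change 2.60, SE 1.18, limma adjusted p = 0.845). *Farp2*, an exchange factor that binds class A plexins, was the gene higher in CNC, at 28.12, 18.78 and 17.81 TPM, against 17.17, 1.16 and 15.75 TPM in SHF (log2 fold change -1.35, SE 1.17, limma adjusted p = 0.895). The gap between the lineages of *Farp2* was 0.64 TPM, from SHF replicate 1 to CNC replicate 3, and its log2 fold change was -0.34 without SHF replicate 2.

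Of 18 cytoplasmic mediators, 14 were tested and 3 did not overlap, beside 11.8% of all tested genes. All 3 were higher in SHF. The most abundant were *Cfl1*, an actin-severing protein, *Dpysl2*, a collapsin response mediator, and *Gsk3b*, a kinase that phosphorylates it, with means of 521, 474 and 81.0 TPM. *Dpysl3*, another collapsin response mediator, was at 44.18, 53.85 and 57.51 TPM in SHF and at 31.30, 17.69 and 21.96 TPM in CNC (log2 fold change 1.13, SE 0.64, limma adjusted p = 0.874). *Cdk5*, a kinase of the same proteins, was at 32.06, 41.35 and 54.58 TPM in SHF and at 23.23, 32.04 and 9.71 TPM in CNC (log2 fold change 1.06, SE 0.75, limma adjusted p = 0.886). SHF replicate 1 and CNC replicate 2 differed by 0.02 TPM for *Cdk5*, and its log2 fold change was 0.59 without CNC replicate 3. *Gipc1*, an adaptor that binds the neuropilin tail, was at 48.20, 65.32 and 68.94 TPM in SHF and at 41.32, 32.16 and 47.37 TPM in CNC (log2 fold change 0.58, SE 0.55, limma adjusted p = 0.896). None of the 6 genes without overlap passed the adjusted threshold.

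**Figure D5:**
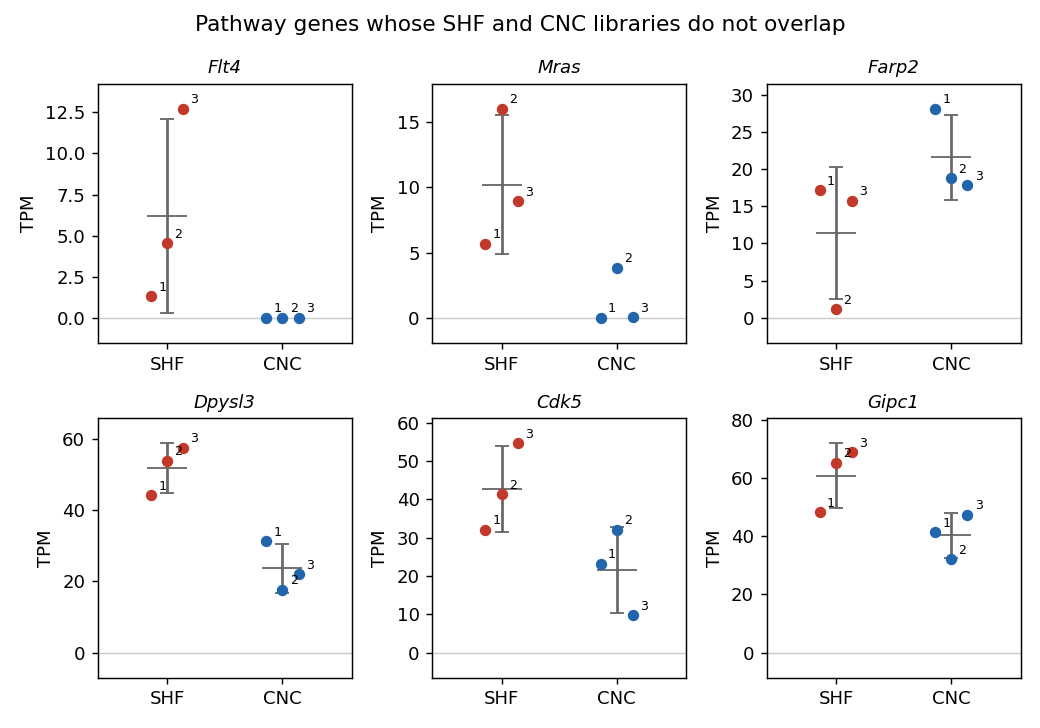
TPM (vertical axes) of the 6 tested pathway genes whose SHF and CNC libraries did not overlap. Points are libraries numbered by replicate, and grey bars are the mean and SD of 3 libraries, left out where a library of the lineage was at 0. *Farp2* is higher in CNC and the other 5 genes are higher in SHF, as for *Dpysl3*, which is at 44.18 TPM or more in SHF and at 31.30 TPM or less in CNC.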

How the data were processed

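RNA of sorted GFP+ aortic cells (3 SHF and 3 CNC libraries) was amplified by the SmartSeq2 protocol and made into Nextera XT libraries. The authors aligned the reads with Bowtie2, estimated gene levels with RSEM 1.2.25 with mm10 as the genome and deposited the TPM of each library, per the labels and the submitters' processing notes. The gene annotation is not given in the sources used here. Groups came from the labels, and columns were matched through the library codes. Depth is unknown.

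The members and lists were chosen with earlier results of these data known. All 31 members are named. Fold changes are given for the 8 tested members with the largest difference and, outside that rule, for the constant genes, chosen after their values were seen. Named pathway genes are the 3 most abundant of each list and every tested one without overlap. Levels were fitted with limma 3.58.1 in R 4.3.3 (lmFit, eBayes with a trend) on log2(TPM + 1), which understates the change of low genes. The fit was tested on simulated data. Positions are from GENCODE M21 on GRCm38, and upstream sequences are from RefSeq (GRCm38.p6), chosen after the values were seen. Alternatives were pseudocounts of 0.1 and 5, other filters on low values, rescaling, fits without a trend or with library weights or a replicate block, and each library left out in turn. Counts and figures used pandas 2.3.3 and matplotlib 3.10.9 under Python 3.11.15. The single-cell data of the study were not analysed here.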

Additional observations from a re-analysis of the deposited data

How the results depend on the processing

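The number of members and of pathway genes past the threshold was 0 under all 15 alternatives, and the number of all genes was 0 under 14 of them and 1 with a pseudocount of 5 (*Gm13305*). The median log2 fold change of the tested members was 0.43 and ran from 0.062 to 0.64 with each library left out, and it was 0.12 with library weights and 0.25 with a pseudocount of 5. The count of tested members without overlap, 0 with all libraries, ran from 0 to 3 with each library left out. It was 2 without SHF replicate 1 (*Sema4b* and *Nrp1*), 2 without SHF replicate 3 (*Sema3d* and *Sema4c*), 2 without CNC replicate 2 (*Sema4b* and *Sema6d*) and 3 without CNC replicate 3 (*Sema3c*, *Plxna4* and *Plxnb2*), where 25.01%, 21.2%, 20.9% and 20.6% of all tested genes did not overlap, since fewer libraries have to be apart.

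Of the 16 log2 fold changes, 9 turned sign under some alternative, none of them past the threshold, and the cause was not tested. With each library left out they ran from -0.052 to 0.88 for *Nrp1*, from -1.60 to 0.74 for *Nrp2*, from -0.33 to 1.49 for *Plxna2*, from -0.073 to 1.48 for *Plxna3*, from -0.46 to 0.43 for *Sema3b*, from -0.38 to 0.32 for *Sema3d*, from -0.072 to 2.27 for *Sema4c*, from -0.58 to 0.74 for *Sema5a* and from -0.51 to 1.29 for *Sema6a*. The other 7 kept their sign with each library left out, from -1.01 to -0.080 for *Sema3c*, -1.79 to -0.068 for *Plxnd1*, -1.79 to -0.19 for *Sema6d*, 0.20 to 1.52 for *Plxna4*, 0.12 to 1.55 for *Plxnc1*, 0.10 to 0.80 for *Plxnb2* and 1.51 to 3.37 for *Sema4b*, which was at 1.005 with a pseudocount of 5 and at 3.74 with one of 0.1. With library weights *Plxna4* was at 0.074 and *Sema3c* at -0.17. With library weights *Sema5a* was at -0.11, *Nrp2* at 0.22, *Sema3b* at -0.30, *Sema3d* at -0.083 and *Sema6a* at -0.11. With median-of-ratios scaling *Sema5a* was at -0.036, *Sema3b* at -0.047 and *Sema3d* at -0.051, and with quantile normalization *Nrp2* was at 0.31, *Sema3b* at -0.056 and *Sema3d* at -0.046. With a pseudocount of 5 *Nrp2* was at 0.24, and with one of 0.1 *Sema5a* was at -0.010. With the replicate number as a block the median was 0.43 and 0 genes passed. Deviations of libraries with the same number had correlations between -0.011 and -0.004. Such correlations cannot tell whether libraries with the same number were prepared together, which the labels do not say.

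With 3 libraries a lineage, and with values that move between 0 and over 10 TPM within a lineage, differences of the variable genes had wide intervals. Without read counts, a value of 0 cannot be told from a missed transcript.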

Other observations

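Of 40 genes of other guidance families (Slits and Robos, netrins and their receptors, ephrins and Eph receptors), listed after the data had been seen, 17 were tested, 14 were at 0 in all libraries and 0 passed the threshold. The highest means were those of the ephrin *Efna5*, 123 TPM, the Eph receptor *Epha3*, 60.8 TPM, and the secreted ligand *Slit3*, 54.8 TPM. At an unadjusted p under 0.05 there were 2 of the 17, beside 5.86% of all tested genes, both Eph receptors, with opposite directions. *Epha3* was at 4.67, 48.04 and 2.54 TPM in SHF and at 141.79, 33.60 and 134.14 TPM in CNC (log2 fold change -3.14, SE 1.06, limma unadjusted p = 0.013, adjusted p = 0.688). SHF replicate 2 lay above CNC replicate 2, so the lineages overlapped. *Epha7* was at 47.55, 115.91 and 45.71 TPM in SHF and at 42.36, 17.09 and 4.08 TPM in CNC, without overlap (log2 fold change 2.02, SE 0.89, limma unadjusted p = 0.044, adjusted p = 0.824). Its log2 fold change was 1.198 without CNC replicate 3. It was the 1 gene of the 17 without overlap, beside 11.8% of all tested genes. Both were chosen after their values were seen.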
